A study of Mus musculus with 2 samples.

Results

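The regions described here are the 250 kb bins of chromosome 1 that hold no midpoint of a protein-coding gene in the RefSeq annotation of GRCm38, the mouse genome build to which the pairs had been mapped. They numbered 152 of the 351 bins of chr1:3000001-90750000 and are called gene-free bins below, although 55 of them lay wholly or partly inside the body of a gene whose midpoint fell elsewhere. The other 199 bins, called gene-bearing, held the midpoints of 497 protein-coding genes, and 20 of them, called gene-dense, held at least 5 midpoints each and 148 in all. The rule for gene-free bins uses the annotation and no contact value.

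Chromosome contacts were measured by Hi-C, an assay which cross-links nuclei, ligates DNA ends that are near one another in space and reads each ligation as a pair of positions. The ES (embryonic stem) cells were from mouse, with 1 wild-type and 1 *Lin28a* knockout library. Both were cultured in medium with LIF and inhibitors (LIF/2i) on gelatin with mouse embryonic fibroblast feeder cells, so some chromatin of feeder cells could be present in either library. The labels mention 2 replicates per group, which the lists of pairs do not name. The sources used here do not say whether the knockout cells came from 1 clone. Without replicates no test was possible, and every interval below is a 95% interval that covers counting error only.

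Mammalian chromosomes are divided into gene-rich, active chromatin (the A compartment) and gene-poor, mostly inactive chromatin (the B compartment), and each kind contacts its own kind more often than the other. Long stretches without coding genes, known as gene deserts, are usually AT-rich, replicate late and often lie against the nuclear lamina or around nucleoli. Within chromosomes, CTCF, a zinc-finger protein that stops cohesin-driven loop extrusion, marks many of the boundaries between neighbouring contact domains.

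The gene-free bins fell into 63 runs of adjoining bins. Of these, 34 were single bins, 9 had 2 bins, 6 had 3 bins and 14 were runs of at least 1 Mb (4 bins or more), which together took 82 of the 152 bins. The 14 long runs are numbered here from 1 to 14 along the chromosome. The longest, run 10, spanned 16 bins at chr1:47000001-51000000 between *Slc39a10*, a zinc transporter gene, and *Tmeff2*, and only the *Tmeff2* gene body reached into it. Next in length came run 5 (8 bins, chr1:26750001-28750000, between 4931408C20Rik and *Gm597*) and run 6 (7 bins, chr1:29000001-30750000, between *Gm597* and *Phf3*). Run 1 (chr1:7250001-8750000, between *Pcmtd1* and *Sntg1*), run 9 (chr1:41000001-42500000, between *Tmem182* and *Pou3f3*, a transcription factor gene) and run 13 (chr1:75750001-77250000, between *Slc4a3* and *Epha4*, an ephrin receptor gene) had 6 bins each. Run 8 was shorter, with 4 bins at chr1:35000001-36000000 between *Plekhb2* and *Hs6st1*, a gene of heparan sulfate sulfation, and it is described further because its values stood apart from those of the other long runs.

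The sequence at the middle of run 8 is printed below from RefSeq GRCm38 on the plus strand, to show DNA of the run whose contacts stood apart. The window is chr1:35499851-35500150, and no annotated gene or exon overlaps it. GATC is the site whose count along chromosome 1 matched the numbering of the restriction fragments in the deposited pairs, and so the site at which DNA could be cut and joined. The window holds 0 such sites, so it has no capitals, and it is masked as repeat over 57.7% of its 300 bases.
middle of run 8: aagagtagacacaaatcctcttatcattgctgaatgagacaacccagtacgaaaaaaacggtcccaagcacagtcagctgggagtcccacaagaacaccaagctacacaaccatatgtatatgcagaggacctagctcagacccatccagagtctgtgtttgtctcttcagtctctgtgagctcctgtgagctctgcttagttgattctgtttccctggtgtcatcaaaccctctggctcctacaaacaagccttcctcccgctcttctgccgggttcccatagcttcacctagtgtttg

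Gene-free bins differed from gene-bearing bins in base composition as well as in genes. Their median GC content was 38.8%, against 41.7% in gene-bearing and 44.7% in gene-dense bins, and their median CpG density was 5.77 per kb against 8.49 and 10.8. Masked repeats took a median of 39.9% of a gene-free bin and 30.9% of a gene-bearing bin. The gene-free bins were not without annotation, since 59 of them held the midpoints of 97 lncRNA genes and 73 held 120 pseudogenes. Cutting sites were about as frequent in both classes, with medians of 633 and 612 GATC sites per bin. The share of pairs with a mapping quality of at least 30 at both ends, by the bin of the first end, had a median of 86.5% in gene-free and 87.7% in gene-bearing bins of wild-type cells, and of 85.5% and 86.5% for knockout cells. A gene-free bin held a median of 21833 pair ends in the wild-type and 16900 in the knockout library, against 26872 and 20925 in gene-bearing bins. The parts played by repeats, mappability and base composition in the contact values below were not tested.

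Gene-free bins kept more of their contacts on chromosome 1 than gene-bearing bins did. The cis share, the percentage of a bin's pair ends whose other end was on the same chromosome, was 74.28% (74.23 to 74.33) in gene-free and 72.52% (72.48 to 72.56) in gene-bearing bins of the wild-type library. In the knockout library it was 74.73% (74.67 to 74.79) and 72.70% (72.66 to 72.75). The gap between the classes was 1.76 percentage points in the wild-type and 2.03 in the knockout library, and it was 0.26 points (0.17 to 0.36) wider in the knockout library. Gene-dense bins had the lowest shares, 70.65% and 70.34%. The order of gene-free above gene-bearing bins held in both libraries when the region was cut into a proximal, a middle and a distal part of equal length. Single bins of both classes overlapped widely, from 67.7% to 78.6% over gene-free and from 65.7% to 77.9% over gene-bearing bins in wild-type cells. The ranking of the 151 gene-free bins that entered the contact maps was nearly the same in both libraries (Spearman's rho 0.96 over bins, which share a library and neighbours and are given without a test).

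Position within a run went with the cis share. The 92 gene-free bins next to a gene-bearing bin had a cis share of 73.75% in wild-type and 74.23% in knockout cells. The 34 bins lying 2 bins away from the nearest gene-bearing bin had 74.34% and 74.70%, and the 26 bins at 3 or more bins had 76.45% and 76.88%. The intervals of these 3 sets did not overlap in either library. The sets drew on different runs, since short runs hold no bins far from a gene-bearing bin. Place was not compared within single runs, so place and run cannot be told apart here. Median GC content of the 3 sets ran the other way, at 39.5%, 38.6% and 37.0%. Of the 55 bins with part of a gene body, 50 were among the 92 next to a gene-bearing bin. Bins with and without a gene body were not compared at the same place.

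Gene-free bins that overlapped a gene body lay between the bins with no gene body and the gene-bearing bins. Their cis share was 73.61% in wild-type and 74.02% in knockout cells, against 74.66% and 75.12% in the 97 bins without a gene body. The median GC content of these sets was nearly equal, at 38.9% and 38.8%. Their median masked repeat content differed, at 35.0% with and 43.3% without a gene body. Median CpG density was 6.12 and 5.66 per kb.

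Contacts within the held part of chromosome 1 were compared at distances of at least 2 Mb as observed over expected (O/E), the balanced contact divided by the mean of all bin pairs at the same distance. Gene-free bins contacted one another at a mean O/E of 1.02 (1.01 to 1.03) in the wild-type and 1.02 (1.01 to 1.02) in the knockout library, and their contact with gene-bearing bins was lower, at 0.927 (0.923 to 0.931) and 0.918 (0.914 to 0.923). With gene-dense bins it was lower again, at 0.814 (0.803 to 0.826) and 0.804 (0.791 to 0.818). The knockout minus wild-type difference among gene-free bins was -0.0050 (-0.015 to 0.0049), which is within counting error. Between gene-free and gene-bearing bins it was -0.0088 (-0.015 to -0.0029). Between gene-free and gene-dense bins it was -0.010 (-0.028 to 0.0080), within counting error.

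The level of 1.02 itself depended on the processing. Without balancing, the mean O/E among gene-free bins was 0.90 in both libraries, below 1, and gene-free bins have fewer pair ends than the rest. It was 1.00 (0.995 to 1.00) in wild-type and 0.995 (0.990 to 1.00) in knockout cells with 100 kb bins, 1.00 and 0.997 at 10 Mb or more, and 1.04 in both with 500 kb bins. The contact odds, in which a coverage factor common to all bins of a class cancels (gene-free with gene-free times gene-bearing with gene-bearing, over the square of the mixed contact), were added after the data were seen. On the log2 scale they were 0.39 (0.37 to 0.40) in the wild-type and 0.43 (0.41 to 0.45) in the knockout library with balancing, and 0.37 and 0.42 without it. The knockout value was higher by 0.042 (0.017 to 0.067), and by 0.047 (0.022 to 0.071) without balancing. These odds also contain the contact among gene-bearing bins, which was 1.10 in the wild-type and 1.12 in the knockout library (higher by 0.016, 0.0088 to 0.024), so the higher odds do not show more contact among gene-free bins. In each of 5 distance bands the odds were above 0 in both libraries and higher in the knockout library, but the interval of the difference lay above 0 in the band from 20 to 40 Mb only.

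Contact among gene-free bins varied with distance in a similar way in both libraries. Between 2 and 5 Mb the mean O/E was 1.11 in the wild-type and 1.10 in the knockout library, and between 40 and 88 Mb it was 0.951 and 0.930. Bins of long runs contacted one another between 2 and 5 Mb at 1.28 and 1.27. Long runs also had less contact with gene-dense bins than shorter runs had, at 0.707 (0.693 to 0.722) against 0.943 (0.924 to 0.962) in wild-type cells and 0.693 against 0.938 in knockout cells. The largest gap between the libraries for gene-free with gene-dense bins was in the band from 20 to 40 Mb, where O/E was 0.812 in wild-type and 0.755 in knockout cells, so that knockout minus wild-type was -0.057 (-0.083 to -0.030). From 40 to 88 Mb the values were 0.887 and 0.925, with a difference of 0.039 (-0.0065 to 0.084) in the other direction.

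**Figure D1:**
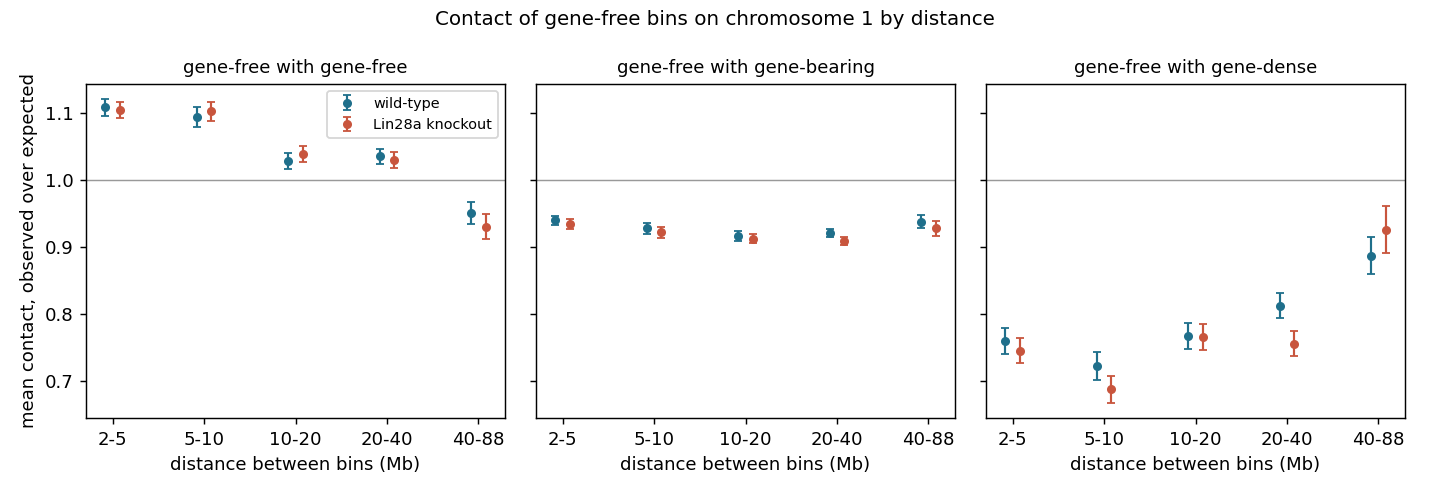
Mean observed over expected contact (linear axis) of gene-free bins with gene-free, gene-bearing and gene-dense bins in 5 distance bands, for the wild-type and the *Lin28a* knockout library; bars are 95% counting intervals. Contact with gene-dense bins lay below 1 in every band. From 20 to 40 Mb, the band with the largest gap, it was 0.812 in the wild-type and 0.755 in the knockout library.

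Contacts at the level of single bins differed little between the libraries. A bin was called where its mean O/E with gene-free bins differed by at least 0.2 on the log2 scale. Of the 349 bins tested, 3 (0.86%) were called higher and 5 (1.43%) lower in the knockout library. None of the 151 gene-free bins was among them, 0 in either direction, but their values ran from -0.177 to 0.184, close to the limit. For the trans share relative to the library median, 0 of 349 bins (0%) were called in either direction at the same limit.

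A compartment-type track, the leading eigenvector of the contact correlation matrix, signed so that bins with more genes are positive, placed most gene-free bins on the negative side. The sign and hence the side use gene counts, so the excess is a description. In wild-type cells 120 of 151 gene-free bins (79.5%) were negative, against 73 of 198 gene-bearing bins (36.9%). In knockout cells the counts were 119 (78.8%) and 72 (36.4%). Among bins of long runs 73 of 82 were negative in each library, and all 26 bins at 3 or more bins from a gene-bearing bin were negative in both. A minority of 30 gene-free bins was positive in both libraries, of which 22 lay in runs shorter than 1 Mb and 8 in long runs, and 3 bins differed in sign. The bins positive in both libraries had a median GC content of 42.02% and the remaining gene-free bins 38.45%.

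Within the gene-free bins the track followed GC content. Spearman's rho across the 151 bins was 0.85 in the wild-type and 0.81 in the knockout library, and 0.80 and 0.77 across the 198 gene-bearing bins. Bins of one chromosome share the library and their neighbours, and these are descriptions without a test. Masked repeat content had a rho of -0.48 and -0.47 with the track over the same gene-free bins.

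**Figure D2:**
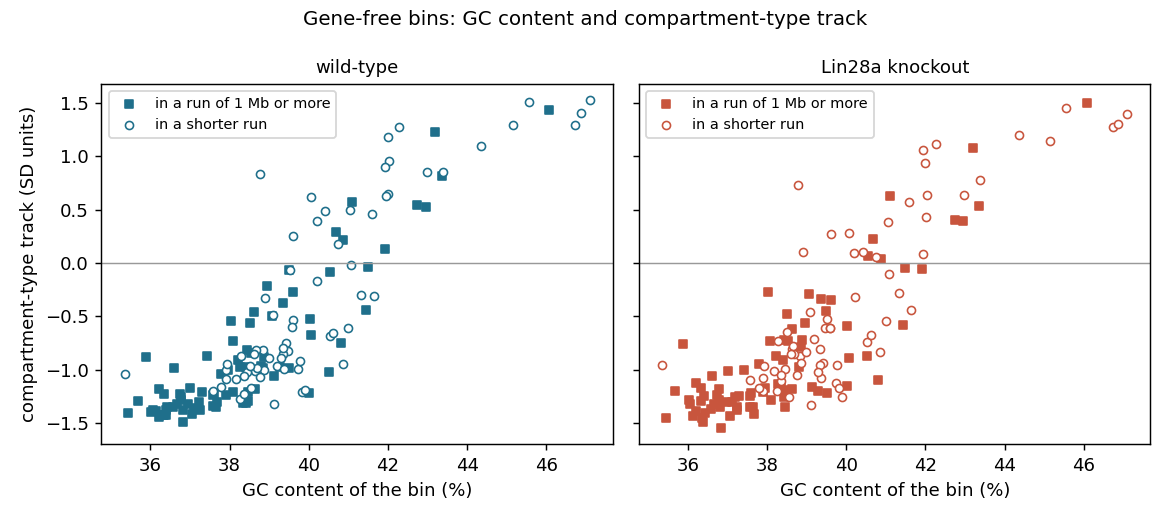
GC content (%) of each gene-free bin against its compartment-type track (SD units), with filled squares for bins in runs of at least 1 Mb and open circles for bins in shorter runs, in the wild-type (left) and the *Lin28a* knockout library (right). Bins with more GC had higher track values in both libraries, with a rho of 0.85 and 0.81.

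The 14 long runs varied, and run 8 lay outside the others in GC content, track, cis share, contact with gene-dense bins and trans odds. The mean GC content of run 8 was 43.9%, and over the other 13 runs it ran from 36.5% to 40.7%. Its track averaged 1.00 in the wild-type and 0.88 in the knockout library, while the other 13 runs averaged between -1.35 and -0.035 in wild-type cells and between -1.37 and -0.056 in knockout cells. Its contact with gene-dense bins was 1.297 (1.21 to 1.38) and 1.335 (1.24 to 1.43), above the highest value of the other runs, 0.959 and 0.948. Run 8 held 3 lncRNA genes and 1 pseudogene. Its contact with other gene-free bins was 0.837 (0.815 to 0.859) and 0.836 (0.813 to 0.858), which run 13, at 0.855 and 0.852, and run 11, at 0.865 and 0.847, matched within counting error.

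The cis share was higher in the knockout library in 11 of the 14 runs. The interval of the difference lay above 0 in 7 and below 0 in 1, which was run 8 (70.31% and 69.64%, the lowest shares of the 14 runs). Over all bins of the region the cis share was also higher in the knockout library, at 73.20% and 73.48%.

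The longest run had little contact with gene-dense bins. Run 10 contacted gene-dense bins at 0.530 (0.506 to 0.554) in the wild-type and 0.511 (0.487 to 0.535) in the knockout library, the lowest values of the 14 runs, though the intervals overlapped with those of run 4 in wild-type and of runs 5, 6 and 7 in knockout cells. Its cis share was 77.43% (77.28 to 77.59) and 78.05% (77.87 to 78.22), its track averaged -1.35 and -1.37, and its trans log2 odds of 0.46 and 0.52 were in the middle of the range. Runs 5 and 6, which lie near each other on either side of *Gm597*, had cis shares of 76.5% and 75.6% in wild-type and 76.5% and 75.8% in knockout cells. Their contact with gene-dense bins was 0.612 and 0.633 in wild-type and 0.546 and 0.588 in knockout cells. Run 9 had a cis share of 75.9% and 76.3% and a contact with gene-dense bins of 0.803 and 0.744. Run 13 had 75.9% and 76.9%, with a contact of 0.893 and 0.905 and a track close to 0 (-0.035 and -0.12). Run 1, near the start of the region, had a low cis share of 71.0% and 71.4% although its track was negative, at -0.64 and -0.71.

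**Figure D3:**
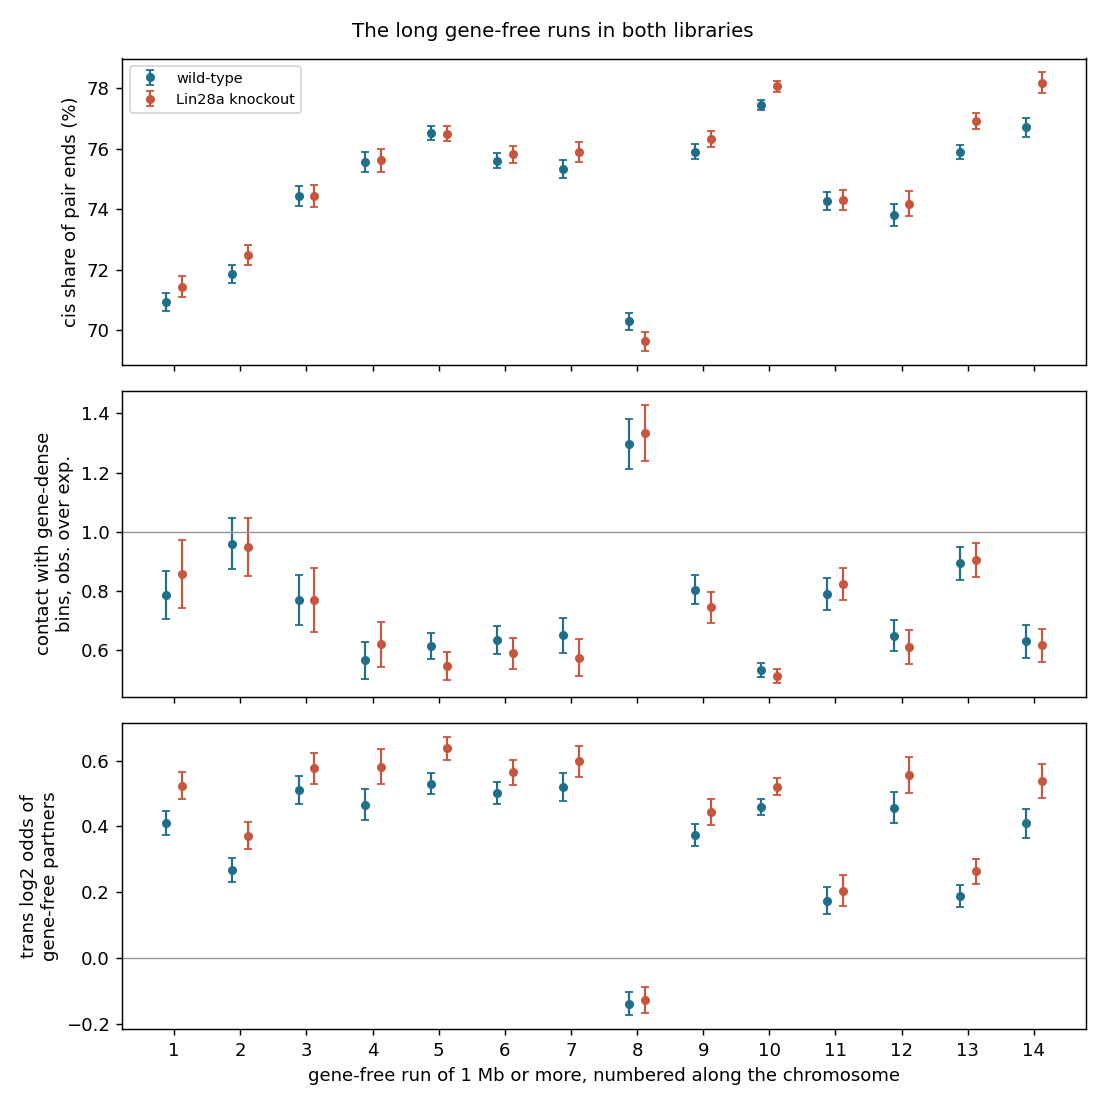
Cis share (%), contact with gene-dense bins (observed over expected) and trans log2 odds of gene-free partners for each of the 14 gene-free runs of at least 1 Mb, numbered along the chromosome, in both libraries; bars are 95% counting intervals. Run 8 was the one run with a contact above 1 (1.297 and 1.335) and with trans odds below 0 (-0.14 and -0.13).

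The long runs did not contact one another evenly. Of the 88 pairs of long runs at least 2 Mb apart, 42 had a mean O/E above 1 in the wild-type and 47 in the knockout library, with medians of 0.972 and 1.04. Pairs were ordered by the mean of both libraries, and the order differed between the libraries. The highest mean was that of run 3, between *Tfap2b* and *Pkhd1*, and run 4, between *Adgrb3* and 4931408C20Rik, at 1.70 (1.54 to 1.86) and 1.61 (1.45 to 1.76). Runs 3 and 7 gave 1.61 and 1.63, and runs 3 and 14, with 61 Mb between them, gave 1.49 (1.19 to 1.78) and 1.70 (1.31 to 2.09), the highest value of the knockout library. The lowest contact in each library was between runs 8 and 10, at 0.595 (0.546 to 0.644) and 0.544 (0.498 to 0.589). Runs 7 and 8, with only 2.75 Mb between them, gave 0.623 and 0.619, and runs 6 and 13 gave 0.642 and 0.641. Of the 88 differences between the libraries, 8 had an interval above 0 and 4 an interval below 0. These intervals are not adjusted for the number of pairs and treat the balancing as fixed.

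Pairs that joined gene-free bins to other chromosomes were read for the gene content of the partner, with partner bins of 250 kb classed by the same rule. In wild-type cells 33.0% of the autosomal trans pairs of gene-free bins ended in a gene-free partner bin, against 28.6% for gene-bearing bins. In knockout cells the shares were 33.9% and 28.4%. Combined over the 18 partner autosomes, the log2 odds were 0.29 (0.28 to 0.30) in the wild-type and 0.37 (0.36 to 0.38) in the knockout library. The knockout value was higher by 0.074 (0.061 to 0.087). It was higher on 18 of 18 autosomes, with an interval of the difference above 0 on 14. These odds also contain the partners of gene-bearing bins, so the difference in odds is not that of gene-free bins alone.

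The difference had nearly the same size in both groups of reads that the read names show, called sequencing runs below. It was 0.075 (0.062 to 0.088) in the larger and 0.076 (0.021 to 0.13) in the smaller group. Groups were ranked by size within each library, so the larger ones need not be the same run in both. Whether they are runs, lanes or the replicates of the labels is not known. The trans ends of gene-free bins on chromosomes 6 and 8 took a share of 6.83% and 5.43% in the wild-type and 8.59% and 7.26% in the knockout library. Those of gene-bearing bins took 6.68% and 5.40% in wild-type and 8.25% and 7.22% in knockout cells, so the higher shares were found in both classes. Without both partners the difference was 0.077 (0.062 to 0.091). On single autosomes the odds ran from 0.16 (chromosome 13) to 0.45 (chromosome 11) in the wild-type library, and these were also the lowest and the highest in the knockout library, at 0.25 and 0.54. With chromosome X the odds were 0.21 and 0.22.

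**Figure D4:**
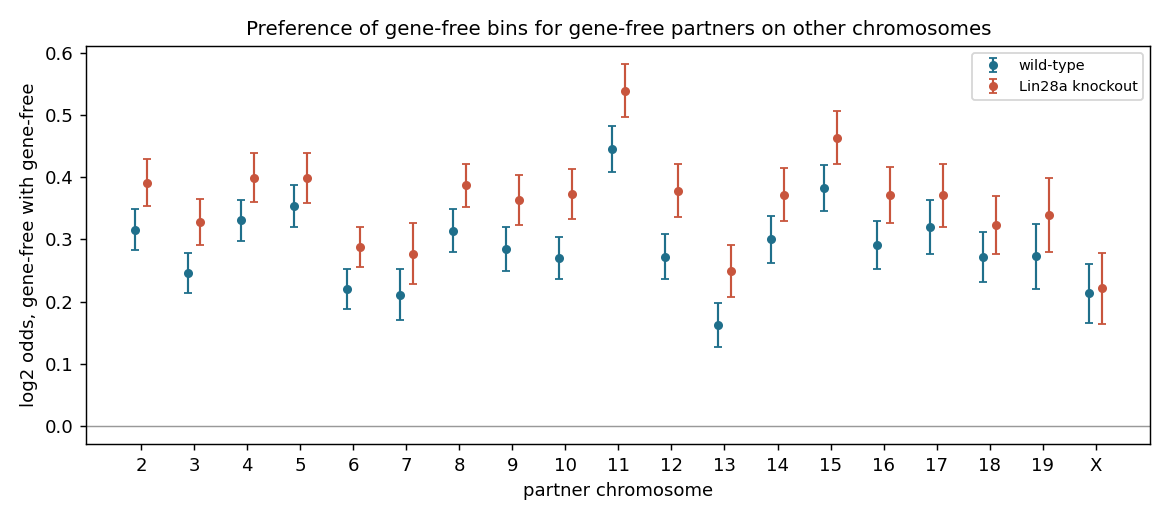
Log2 odds of gene-free bins of chromosome 1 meeting gene-free rather than gene-bearing partner bins, relative to gene-bearing bins, for each partner chromosome in both libraries; bars are 95% counting intervals. All odds were above 0, and on the 18 autosomes the knockout value was the higher one.

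The trans contacts of gene-free bins were lower the more genes the partner bin held. Relative to all bins of the region, their contact with partner bins without gene midpoints was 1.09 in the wild-type and 1.12 in the knockout library, and with partner bins of 1 to 2 midpoints it was 0.997 in both. It was 0.942 and 0.926 at 3 to 4 midpoints, 0.912 and 0.887 at 5 to 9, and 0.899 (0.890 to 0.909) and 0.870 (0.859 to 0.880) at 10 or more. Gene-dense bins went the other way, at 0.832 and 0.794 with partner bins without midpoints and 1.24 and 1.29 at 10 or more. The log2 odds of gene-free against gene-dense bins were 0.54 and 0.68, higher by 0.14 (0.11 to 0.16) in the knockout library.

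Trans preference also went with the place in the run, again over sets of bins that drew on different runs. The log2 odds were 0.24 and 0.31 for bins next to a gene-bearing bin, 0.34 and 0.42 at 2 bins, and 0.47 and 0.55 at 3 or more bins in the wild-type and the knockout library. Long runs had 0.36 (0.35 to 0.37) and 0.44 (0.43 to 0.45), and shorter runs 0.22 (0.21 to 0.23) and 0.29 (0.28 to 0.31). All 14 long runs had higher odds in the knockout library, with an interval of the difference above 0 in 11. The 14 values are not independent, since all are set against the same gene-bearing bins. The gene-free partner share of those bins was 28.6% in the wild-type and 28.4% in the knockout library. In run 8 the share was 27.0% and 27.1%. Run 8 was the only long run with odds below 0 in both libraries, at -0.14 (-0.17 to -0.10) and -0.13 (-0.17 to -0.087). Run 5 had 0.53 (0.50 to 0.56) and 0.64 (0.60 to 0.67), with intervals that overlapped those of runs 3, 4, 6, 7 and 12 in both libraries.

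The same preference was present on chromosome 1 itself, past the region. Of the 419 bins distal to it 170 were gene-free, and the log2 odds of gene-free with gene-free were 0.54 (0.52 to 0.55) for wild-type cells and 0.58 (0.56 to 0.60) for knockout cells. The excess in knockout cells, 0.044 (0.019 to 0.070), was present in the larger sequencing run, at 0.045 (0.018 to 0.071), and was -0.015 (-0.13 to 0.096) in the smaller run. For long runs alone it was 0.032 (-0.0022 to 0.066), within counting error. For shorter runs it was 0.069 (0.037 to 0.10), and these 2 intervals overlapped. With bins holding part of a gene body counted as gene-bearing on both sides it was 0.024 (-0.0067 to 0.055), within counting error. These odds do not hold distance constant.

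Fewer of the cis pairs of the knockout library spanned 30 Mb or more, and more of them spanned 0.5 to 30 Mb. Of cis pairs of at least 20 kb with an end in a gene-free bin, those joining positions at least 10 Mb apart made up 34.39% (34.31 to 34.46) in wild-type and 31.43% (31.35 to 31.51) in knockout cells. Knockout minus wild-type was -2.95 percentage points (-3.06 to -2.84). Pairs with an end in a gene-bearing bin gave 36.98% and 34.12%, so the lower share was found in both classes. Of the distance bands from 0.5 Mb up, only the longest was lower in the knockout library. At 30 Mb or more the shares of gene-free bins were 19.04% and 14.80%, while from 10 to 30 Mb they were 15.3% and 16.6%, from 2 to 10 Mb 15.3% and 16.6%, and from 0.5 to 2 Mb 20.8% and 22.4%. When both ends had to lie in the region the difference in the share at 10 Mb or more was -0.92 (-1.03 to -0.82). The parts of long distance and of partners past the region were not separated.

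Away from their ends, the long gene-free runs had an insulation score that varied less than elsewhere. The insulation score, the log2 of contact across a position in a 500 kb square over the mean, was followed at 100 kb steps, and minima with a prominence of at least 0.1 were called boundaries. At least 200 kb inside the ends of the long runs there were 141 scored positions. They held 11 boundaries in each library, 7.80 per 10 Mb (exact Poisson interval 3.89 to 13.96). This density depended on the settings. It was 13.5 and 12.1 in the wild-type and knockout libraries with a 300 kb square, and 4.26 and 2.84 with a 1 Mb square. At a prominence of 0.2 it was 5.67 and 3.55. With all positions of a run it was 9.14 in both libraries, and in the smaller sequencing run 14.2 in both. Over all scored positions, boundaries were called at 98 of 854 (11.5%) in the wild-type and at 96 of 855 (11.2%) in the knockout library. Elsewhere the density was 12.2 (9.77 to 15.1) and 11.9 (9.51 to 14.7) per 10 Mb, so the intervals overlapped with those of the runs.

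Boundaries at least 200 kb inside the runs had a higher median score than those elsewhere. Their median score was -0.17 in the wild-type and -0.20 in the knockout library, against -0.40 and -0.39 elsewhere. The SD of the score over positions was 0.25 and 0.24 inside and 0.36 in both libraries outside, and the lowest score was -0.55 and -0.49 inside and -1.31 and -1.29 outside. Of the 11 boundaries in the knockout library 10 lay within 1 position of a wild-type boundary, and 9 of the 11 in the wild-type library lay within 1 position of a knockout one. The matching share over all boundaries is not given here, so these counts show nothing particular to the runs. The run between *Slc39a10* and *Tmeff2* held 4 boundaries in the wild-type and 3 in the knockout library at least 200 kb from its ends.

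**Figure D5:**
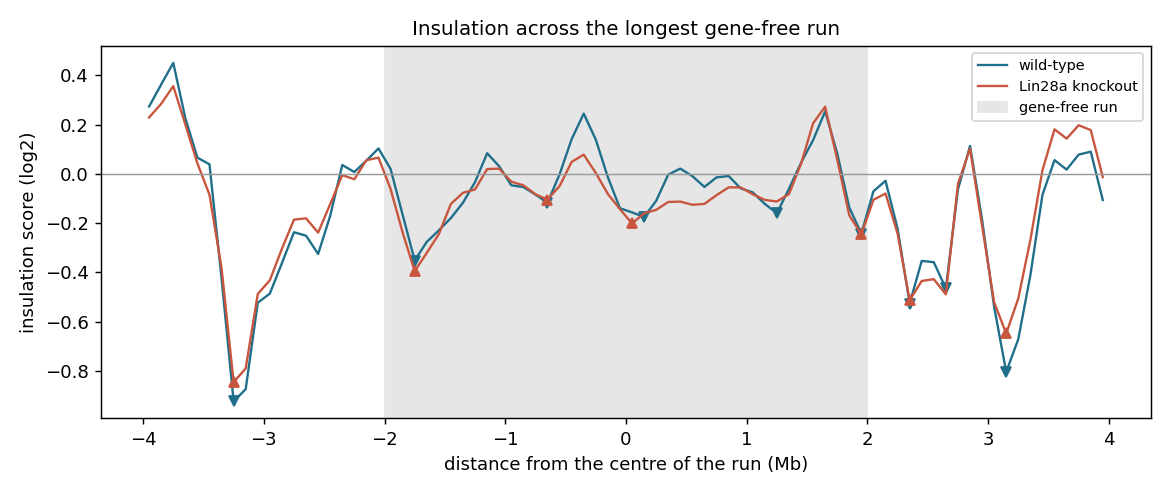
Insulation score (log2) at 100 kb steps against the distance (Mb) from the centre of run 10, the longest gene-free run (grey), in the wild-type and the *Lin28a* knockout library; triangles mark boundaries, pointing down for wild-type and up for knockout. Inside the run, at least 200 kb from its ends, the lowest score was -0.35 in the wild-type and -0.40 in the knockout library.

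The 3 lowest boundaries inside long runs in the summed map of both libraries are shown with a CTCF-like match, since CTCF motifs are frequent at domain boundaries. The letters searched were CCANNAGNNGGC on either strand, and the match nearest to the middle of the 100 kb position is in capitals within 60 bases of the plus strand of RefSeq GRCm38 (on the minus strand for run 6, so its capitals read as the reverse complement). The windows are chr1:25840908-25840967, chr1:47217869-47217928 and chr1:29465210-29465269, and no annotated gene overlaps them. They are masked as repeat over 100%, 35% and 100% of their bases. The scores of the 3 positions were -0.55, -0.35 and -0.31 in the wild-type and -0.40, -0.40 and -0.34 in the knockout library. The position in run 10 was called in both libraries, the one in run 4 in the wild-type library only, and the one in run 6 in the knockout library, with the wild-type call at the position before it.
boundary in run 4: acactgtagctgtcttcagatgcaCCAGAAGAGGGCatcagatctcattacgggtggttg
boundary in run 10: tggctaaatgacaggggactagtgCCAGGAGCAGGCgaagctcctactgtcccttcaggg
boundary in run 6: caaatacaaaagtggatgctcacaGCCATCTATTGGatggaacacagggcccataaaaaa

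Such matches were common, also away from boundaries. Of the 11 boundaries inside long runs called in the summed map, 10 (90.9%) held at least 1 match, as did 115 of the other 130 positions there (88.5%), 87 of 87 boundaries elsewhere and 816 of all 855 scored positions (95.4%). The median number of matches per position was 2 at boundaries and 2 at other positions inside runs, and 5 and 4 elsewhere. Per 250 kb bin it was 6 in gene-free, 14 in gene-bearing and 23 in gene-dense bins. A match of these letters is a description of the sequence and was not compared with measured CTCF binding.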

How the data were processed

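Hi-C libraries of wild-type and *Lin28a* knockout mouse ES cells were analysed from the lists of valid pairs that the authors deposited. Per the labels, reads were processed with CASAVA 1.8, Bowtie2 and HiC-Pro against mm10, and the parameters are not given in the sources used here. The deposited mapping quality score of each end ran from 11 to 42, and deposited positions carry no normalization. The lists analysed here were partial and sorted by first end, so that the comparison was made for first ends in chr1:3000001-90750000, with 5751245 wild-type and 4399283 knockout pairs, of which 3445388 and 2634001 were in cis. The edited *Lin28a* locus was not analysed here, so the knockout label was not checked. Counts of pairs were made from these deposited lists. The rule for the members uses the annotation alone, but that rule, the gene lists and the settings were chosen with earlier results of these data known.

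Maps used cis pairs of at least 20 kb with both ends in the region (2448749 and 1973740, the first thinned at random to 1973740), in bins of 250 kb (100 kb for insulation), balanced by iterative correction, after dropping 2 bins whose total was below 20% of the median, 1 of them gene-free. Odds were combined over autosomes by inverse variance. Intervals hold the balancing weights fixed (1.96 SE, or exact Poisson for boundary densities) and cover counting error only; pairs carry no molecular identifiers. The text names the 6 longest runs, with ties in order of position, the 3 highest and 3 lowest run pairs by the mean of both libraries and the 3 lowest boundaries of the summed map, and run 8 was named after its values were seen. The contact odds, the odds combined over autosomes and the boundary calls were tested on simulated data, and the other measures were not. Python 3, NumPy, SciPy and matplotlib were used. One sequence is not reported here.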

Additional observations from a re-analysis of the deposited data

How the results depend on the processing

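The 6 knockout minus wild-type differences were computed again under 56 alternatives in all, and 47 moved by less than the counting interval of the reported value. Contact among gene-free bins (reported difference -0.0050) was 0.0067 with runs of at least 1 Mb only and -0.028 in the smaller sequencing run, and it stayed between those values under the other alternatives, within counting error. The trans log2 odds (0.074) were 0.057 where bins with any gene body counted as gene-bearing, in the region and among partners. They were above 0 under all 9 alternatives. With such bins of the region left out instead, and partners classed by midpoints, the difference was 0.076 (0.061 to 0.091). The gap in cis share (0.26 percentage points) was 0.16 in the smaller run, with an interval from -0.26 to 0.58, and above 0 under all 8. The far cis share (-2.95 percentage points) was -4.24 at 30 Mb or more, -0.92 with both ends in the region, -2.81 without gene bodies and -3.07 in the smaller run. The odds with the distal part of chromosome 1 (0.044) were -0.015 in the smaller run, the reverse of the reported direction, with an interval from -0.13 to 0.096. They were 0.024 where bins with a gene body counted as gene-bearing on both sides (interval -0.0067 to 0.055). Under the 6 alternatives other than the smaller run they were above 0. The smaller run held 503632 wild-type and 187521 knockout pairs. The cause of these changes was not tested. The density of boundaries in long runs (difference 0) ran from -2.13 to 1.08 per 10 Mb over 11 alternatives, and its limit is the 11 boundaries in each library. Runs of at least 1 Mb are already the base of that density, so this alternative gave no separate value. No paired analysis was possible because each group has 1 library.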
